A study of Rattus norvegicus with 8 samples.

Results

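Smooth muscle cells and myofibroblasts share a set of contractile genes, and 10 of them were followed here in nucleus pulposus (NP) cells, the cells of the soft core of the intervertebral disc. They were picked by gene symbol, as listed contractile genes, with earlier results of these data known: Acta2, Actg2, Tagln, Cnn1, Cnn2, Myl9, Tpm1, Tpm2, Cald1 and Srf. Each symbol had 1 row, so they were 10 of the 32883 gene rows of the count table, and all 10 were among the 13250 genes with enough reads to be tested.

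In a smooth muscle cell, filaments of alpha and gamma smooth muscle actin (Acta2, Actg2) slide against myosin when its regulatory light chain (Myl9) is phosphorylated. Tropomyosins (Tpm1, Tpm2) lie along the actin filament, and caldesmon (Cald1), calponins (Cnn1, Cnn2) and transgelin (Tagln) bind the filament and tune or stabilise it. Many of these genes carry CArG boxes, the DNA element bound by serum response factor (Srf), whose partners in the myocardin family respond to the state of the actin cytoskeleton. Fibroblasts and disc cells that take on a myofibroblast character are known for the same genes.

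The NP cells were primary cells of adult rats (Sprague Dawley), grown in medium with serum and transduced with lentivirus, then selected with puromycin. Sirt6-KD cells received a mixture of 3 ShSirt6 clones against Sirt6, a chromatin deacetylase, and Sirt6-Ctrl cells received the control virus ShCtrl, so the virus and the selection were common to both groups. Each group had 4 libraries (Sirt6-Ctrl S1 to S4, Sirt6-KD S5 to S8), from cells of 4 rats per the series record. The labels do not say which knockdown library belongs with which control library, so the test was unpaired and its p-values measure the spread between these libraries.

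Library totals ran from 31994838 to 40124813 counts for the controls and lay between 32382957 and 36600792 for the knockdown. Sirt6 was at 52.7 ± 3.78 CPM (counts scaled to a common library size of 1000000 and TMM-normalized, mean ± SD, n = 4) in Sirt6-Ctrl and 20.6 ± 1.07 in Sirt6-KD. By Sirt6 alone, each library matched its label. A mean chi-square per gene was also taken on the counts of each pair of libraries, higher for pairs less alike. Control S3 was at 109 to 121 with S5 to S8, but at 143 to 238 with the other controls. Spike-in RNA made up 2.97 to 9.80% of counts in Sirt6-Ctrl and 2.15 to 2.47% in Sirt6-KD, with no overlap (exact permutation test, two-sided, p = 0.0286, the smallest that 4 against 4 allows). All 8 NP markers that could be read, among them the proteoglycan genes Acan and Vcan, were above 1 CPM in both groups. Col2a1, Krt18, Krt19 and T were not analysed here because the name table gave them no row. Names were given only to rows whose counts summed to more than 80, so a marker without a row may have been low or unnamed. The markers read thus do not show the level of those missing. Of the endothelial markers only Tek had a row, and it stayed at or below 0.592 CPM.

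Libraries S4 and S8 stood apart from the other 3 of their groups in these genes. The 10 members together took 0.158, 0.218 and 0.272% of the gene counts in S1, S2 and S3 but 0.574% in S4, and 0.363, 0.348 and 0.315% in S5, S6 and S7 but 0.547% in S8. The group means, 0.305 ± 0.185% in Sirt6-Ctrl and 0.393 ± 0.105% in Sirt6-KD (SD, n = 4), differed by less than either SD. S4 was the highest control library and S8 the highest knockdown library for 7 of the 10 members, a pattern held by 10.6% of all genes tested, and the other pairs of a control and a knockdown library each held between 3.28 and 10.3% of genes. For 4 members, Acta2, Actg2, Cnn1 and Myl9, both libraries were over 2-fold above the next library of their group, beside 0.475% of all genes. Results are therefore given with and without S4 and S8, and the fit without both was added after the data were seen.

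Sirt6 knockdown went with more RNA of 2 contractile genes, Cnn2 and Srf, and 0 of the 10 passed in the other direction. Cnn2 was at 104 ± 30.7 CPM in Sirt6-Ctrl and 219 ± 27.0 in Sirt6-KD, and Srf at 78.2 ± 15.1 and 121 ± 7.90 (SD, n = 4). A call needed both an adjusted p under 0.05 (edgeR's quasi-likelihood test, Benjamini-Hochberg over all rows tested) and a change of more than 1.5-fold, and by that rule 8.02% of all genes tested were higher and 10.7% lower. At an unadjusted p under 0.05, 2 members were higher and 0 lower in edgeR's test, and DESeq2 and limma-voom also called 0 lower. DESeq2 gave no adjusted p for Acta2, however, and so could not call it. The log2 fold change was positive for 8 members and negative for 2, with a median of 0.39 beside -0.016 over all genes tested. The count of 2 became 5 without S4. It became 1 without S1, S5, S6 or S7 in turn, each time by the loss of Srf, whose log2 fold change was then 0.57 to 0.61, and calls of higher genes over the whole table fell in these 4 fits from 1063 to between 445 and 552. In bulk RNA, fewer cells of a type and less RNA per cell cannot be told apart, and this holds for each result given here.

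**Figure D1:**
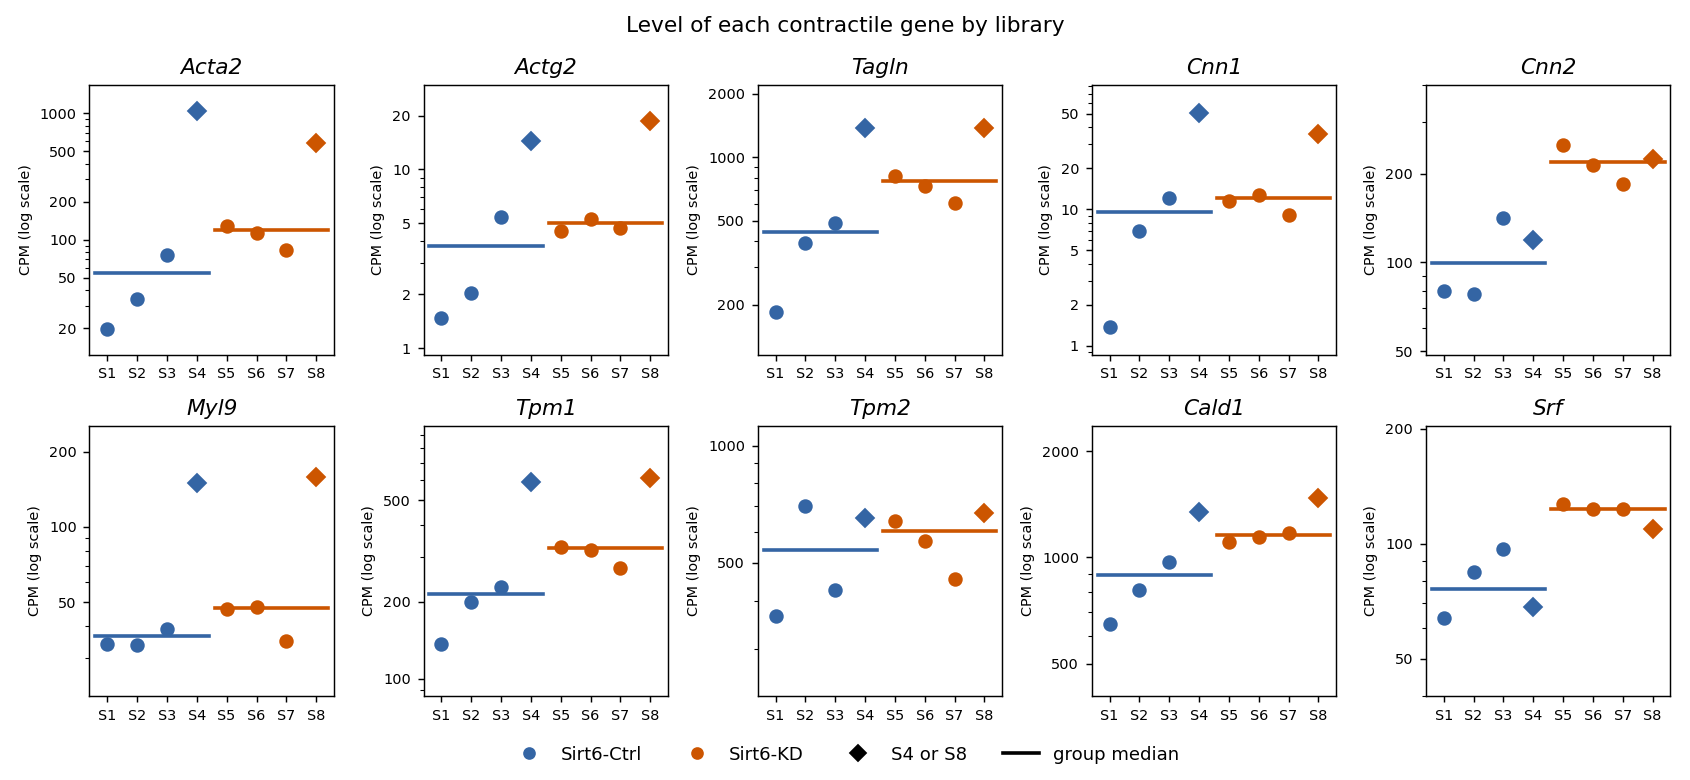
Level of each of the 10 genes in CPM, on a log axis with its own range in each panel, for the 4 Sirt6-Ctrl libraries (blue, S1 to S4) and the 4 Sirt6-KD libraries (orange, S5 to S8), with lines at the group medians and diamonds for S4 and S8. The groups are separate for Cnn2 and Srf, while S4 at 1048 and S8 at 583 CPM stand above their groups for Acta2.

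Promoter sequence is shown for the 2 members that passed, Cnn2 and Srf, and for Acta2, the actin gene by which myofibroblasts are usually recognised. Each run is the 250 bases before the RefSeq start site (build GRCr8) on the gene's own strand, 5′ to 3′, and capitals mark CArG boxes, including relaxed ones in which 1 base of the A and T core is replaced. The windows lie at chr7:10370313-10370562 (minus strand) for Cnn2, chr9:21923826-21924075 (plus strand) for Srf and chr1:241172504-241172753 (minus strand) for Acta2.

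Cnn2: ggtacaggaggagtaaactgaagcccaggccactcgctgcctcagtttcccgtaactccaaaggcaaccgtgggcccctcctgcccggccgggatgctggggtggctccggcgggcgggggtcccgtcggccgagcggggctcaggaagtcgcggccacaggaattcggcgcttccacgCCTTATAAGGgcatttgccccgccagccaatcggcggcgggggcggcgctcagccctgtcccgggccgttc

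Srf: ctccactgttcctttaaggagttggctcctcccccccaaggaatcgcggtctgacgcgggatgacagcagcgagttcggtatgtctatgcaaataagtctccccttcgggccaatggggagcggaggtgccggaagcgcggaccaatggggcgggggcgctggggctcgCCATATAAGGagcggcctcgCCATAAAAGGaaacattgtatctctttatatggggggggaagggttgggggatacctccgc

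Acta2: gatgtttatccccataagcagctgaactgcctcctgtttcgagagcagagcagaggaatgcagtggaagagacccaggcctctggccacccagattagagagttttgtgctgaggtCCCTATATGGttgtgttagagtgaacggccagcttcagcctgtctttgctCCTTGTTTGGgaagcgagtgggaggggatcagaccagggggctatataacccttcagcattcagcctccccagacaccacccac

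A CArG box was searched on both strands from 250 bases before the start to 50 after it. Cnn2 held 1 (CCTTATAAGG at position -71) and Srf held 2 (CCATATAAGG at -81 and CCATAAAAGG at -61), positions being counted from the start site. These were 2 of the 8 members with a window, and 1.64% of all 33469 promoter windows held a CArG box. With the relaxed form, Acta2 joined them (CCCTATATGG at -134 and CCTTGTTTGG at -84), which made 3 of 8, beside 9.42% of windows. Actg2, Cnn1, Tpm1, Tpm2 and the 2 windows of Cald1 held neither form. Tagln and Myl9 had no window here and were not searched. The motif TATAAA was in the windows of 2 members, Srf (-37, on the other strand) and Cald1 (-232, in its second window), and in 14.2% of all windows. A match describes the letters of these windows and not binding, which was not measured here.

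Among the genes of the filament itself, Acta2 (ENSRNOG00000058039), alpha smooth muscle actin, had the widest range between libraries, as the ratio of the highest to the lowest, of the 10 members. It stood at 19.8, 33.8, 76.2 and 1048 CPM in S1 to S4 and at 128, 113, 83.8 and 583 CPM in S5 to S8. The groups overlapped because of S4, which was 24.2 times the mean of S1 to S3, while S8 was 5.38 times the mean of S5 to S7. The log2 fold change was -0.38 (SE 1.12, 95% interval -2.85 to 2.10, adjusted p = 0.843 by edgeR's quasi-likelihood test), an interval wide enough to hold a large change either way. It became 2.39 without S4 (SE 0.74, adjusted p = 0.0467), -1.43 without S8 (SE 1.19, adjusted p = 0.461) and 1.33 without both (SE 0.44, adjusted p = 0.0823). In the 6 libraries S1 to S3 and S5 to S7 the 2 groups did not overlap, the highest control library being at 76.2 and the lowest knockdown library at 83.8 CPM. How reads that match several actin genes were counted is not given in the sources used here, and actin genes have closely similar coding sequences.

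Actg2 (ENSRNOG00000029401), gamma smooth muscle actin of visceral muscle, was the member with the fewest reads, 51 to 630 counts a library. Its level was 1.47, 2.04, 5.39 and 14.4 CPM in S1 to S4 and 4.54, 5.26, 4.72 and 18.6 CPM in S5 to S8. The groups overlapped, with S4 and S8 again the highest. The log2 fold change was 0.51 (SE 0.73, adjusted p = 0.657 by edgeR's quasi-likelihood test), and without S8 it was -0.24.

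Of the tropomyosins, Tpm1 (ENSRNOG00000018184) was at 137, 199, 229 and 587 CPM in S1 to S4 and at 328, 320, 271 and 608 CPM in S5 to S8. The 3 knockdown libraries S5 to S7 were above S1 to S3, and S4 closed the gap between the groups. Its log2 fold change was 0.41 (SE 0.42, adjusted p = 0.525 by edgeR's quasi-likelihood test), and 1.02 without S4 (SE 0.29, adjusted p = 0.0369). Tpm2 (ENSRNOG00000016731) was at 365, 701, 426 and 651 CPM in S1 to S4 and at 642, 568, 454 and 672 CPM in S5 to S8. The groups overlapped, with the wider spread in Sirt6-Ctrl (SD 165 beside 97.0 CPM), and a log2 fold change of 0.12 (SE 0.22, 95% interval -0.37 to 0.62, adjusted p = 0.729). S4 and S8 were 1.31 and 1.21 times the mean of the other 3 libraries of their groups, beside 3.12 and 1.99 times for Tpm1.

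Myl9 (ENSRNOG00000020246), the regulatory light chain of smooth muscle myosin, was nearly level in 6 libraries and high in S4 and S8. It was at 34.1, 33.8, 39.2 and 150 CPM in S1 to S4 and at 47.1, 47.8, 35.0 and 158 CPM in S5 to S8. The log2 fold change was 0.16 (SE 0.59, 95% interval -1.14 to 1.46, adjusted p = 0.876 by edgeR's quasi-likelihood test). Its sign rested on single libraries, with 1.01 without S4, -0.54 without S8 and between -0.038 and -0.018 without S1, S2 or S3.

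Of the calponins, actin-binding proteins that restrain myosin, the smooth muscle form did not pass and the broadly expressed form did, and the difference between them was not tested. Cnn1 (ENSRNOG00000027736), the smooth muscle form, was at 1.38, 6.96, 12.1 and 51.0 CPM in S1 to S4 and at 11.5, 12.8, 9.05 and 35.9 CPM in S5 to S8. The groups overlapped, with a log2 fold change of -0.046 (SE 0.84, adjusted p = 0.977 by edgeR's quasi-likelihood test). That sign turned without S4, where it was 1.34, and without S5, S6 or S7, where it was 0.11, 0.074 and 0.17. Cnn2 (ENSRNOG00000043044), found in many cell types, was at 80.2, 77.9, 141 and 119 CPM in S1 to S4 and at 250, 214, 185 and 225 CPM in S5 to S8. Every knockdown library was above every control library, as for 14.8% of all genes tested, while 15.6% had every knockdown library below and no member did. The log2 fold change of Cnn2 was 1.07 (SE 0.20, 95% interval 0.62 to 1.51, adjusted p = 0.00765). S4 and S8 were 1.19 and 1.04 times the mean of the other 3 libraries of their groups, and the change was 1.13 without both (adjusted p = 0.0348).

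Tagln (ENSRNOG00000017628), which encodes transgelin and is an early marker of smooth muscle, was at 185, 392, 488 and 1380 CPM in S1 to S4 and at 816, 732, 604 and 1380 CPM in S5 to S8. The knockdown libraries S5 to S7 were above S1 to S3, and S4 and S8 stood at the same level to 3 digits. Its log2 fold change was 0.53 (SE 0.51, adjusted p = 0.492 by edgeR's quasi-likelihood test), and 1.31 without S4 (SE 0.36, adjusted p = 0.0332). Cald1 (ENSRNOG00000010233), caldesmon, likewise had S5 to S7 above S1 to S3 and S4 above S5 to S7, at 648, 807, 972 and 1345 CPM in S1 to S4 and at 1106, 1144, 1171 and 1473 CPM in S5 to S8. Its log2 fold change was 0.38 (SE 0.22, adjusted p = 0.239), and 0.59 without S4 (SE 0.18, adjusted p = 0.0417).

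Srf (ENSRNOG00000018232), the transcription factor of the group, was at 63.9, 84.2, 96.7 and 68.2 CPM in S1 to S4 and at 127, 123, 123 and 109 CPM in S5 to S8. The groups did not overlap, and S4 and S8 were 0.836 and 0.877 times the mean of the other libraries of their groups, so neither stood out upward. The log2 fold change of Srf was 0.62 (SE 0.15, 95% interval 0.29 to 0.96, adjusted p = 0.0174 by edgeR's quasi-likelihood test), just above the fold threshold. The call of Srf was lost without S1 and without S4, where the change fell to 0.57 and 0.56, and without S5, S6 or S7, where the adjusted p rose above 0.05.

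Leaving out S4 and S8 thus moved the genes unequally. Without S4, 5 members were called higher (Acta2, Tagln, Cnn2, Tpm1 and Cald1), beside 8.09% of genes, and Srf passed the adjusted p (0.0354) but not the fold threshold. Without S8, Cnn2 and Srf were called, beside 5.42% of genes. Without both, Cnn2 alone was called, beside 4.11% of genes, and all 10 estimates were then positive. No member was called lower in these fits, beside 10.9% of genes without S4, 7.25% without S8 and 6.85% without both. In the 6 libraries left, 6 members (Acta2, Tagln, Cnn2, Tpm1, Cald1 and Srf) had S5 to S7 all above S1 to S3, beside 21.1% of genes.

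**Figure D2:**
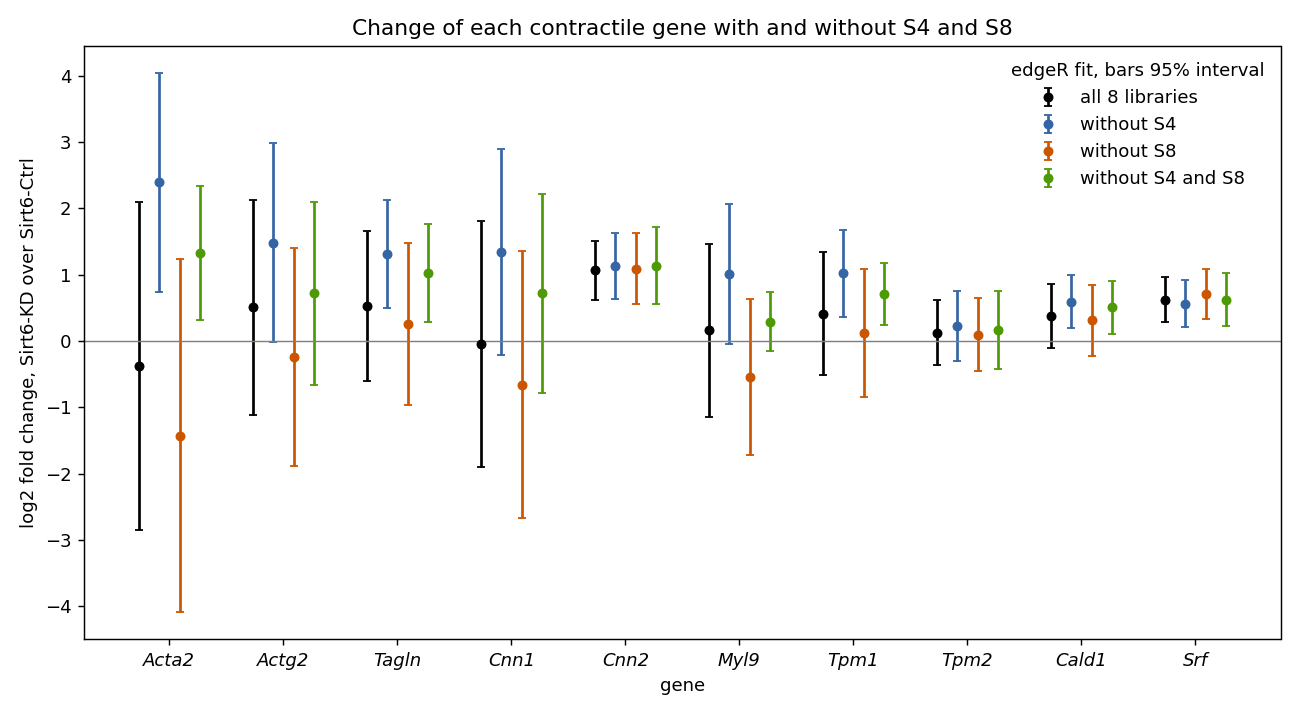
Log2 fold change of each gene, Sirt6-KD over Sirt6-Ctrl, with 95% intervals, fitted by edgeR on all 8 libraries (black), without S4 (blue), without S8 (orange) and without both (green). The Acta2 estimate moves from -1.43 to 2.39 among these fits, while that of Cnn2 stays between 1.07 and 1.13.

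The scale was a further limit, since the spike-in share differed between the groups. Scaled by the spike-ins, all genes together had a median log2 fold change of 0.94, and relative to that median Cnn2 was at 0.91 and Srf at 0.61, while Acta2 was at -0.86, Cnn1 at -0.45, Myl9 at -0.10 and the other 5 members between 0.14 and 0.25. On that scale neither Cnn2 (log2 fold change 1.86, SE 0.56, adjusted p = 0.0833, edgeR) nor Srf (1.56, SE 0.50, adjusted p = 0.0885) was called. Few genes were called there at all, 20 higher and 4 lower of all tested, and Sirt6 itself was not (-0.36, adjusted p = 0.567).

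Ratios of 2 genes within a library do not depend on scaling, and 8 members were each set against a broadly expressed relative as a log2 ratio of counts. For Cnn2, itself broadly expressed, this is a ratio of 2 broadly expressed calponins. The ratio of Cnn2 to Cnn3 was -1.61, -2.03, -1.15 and -1.28 in S1 to S4 and -0.06, -0.35, -0.61 and -0.27 in S5 to S8, and it was the only one of the 8 ratios whose groups did not overlap. Its mean was 1.19 higher in Sirt6-KD. The ratio of Acta2 to Actb was -6.72, -6.32, -4.89 and -1.70 in S1 to S4 and -4.41, -4.55, -4.92 and -2.47 in S5 to S8. Against Actb, S4 and S8 therefore remained the highest libraries for Acta2, as they did for Actg2 to Actg1, Tagln to Tagln2, Cnn1 to Cnn3, Myl9 to Myl12b and, with a smaller lead of S4, Tpm1 to Tpm4. The ratio of Tpm2 to Tpm3 was on average 0.57 higher in Sirt6-KD, with an overlap between S2 at 0.82 and S7 and S8 at 0.76 and 0.72. Such ratios show that the genes changed unequally and not which of them moved.

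**Figure D3:**
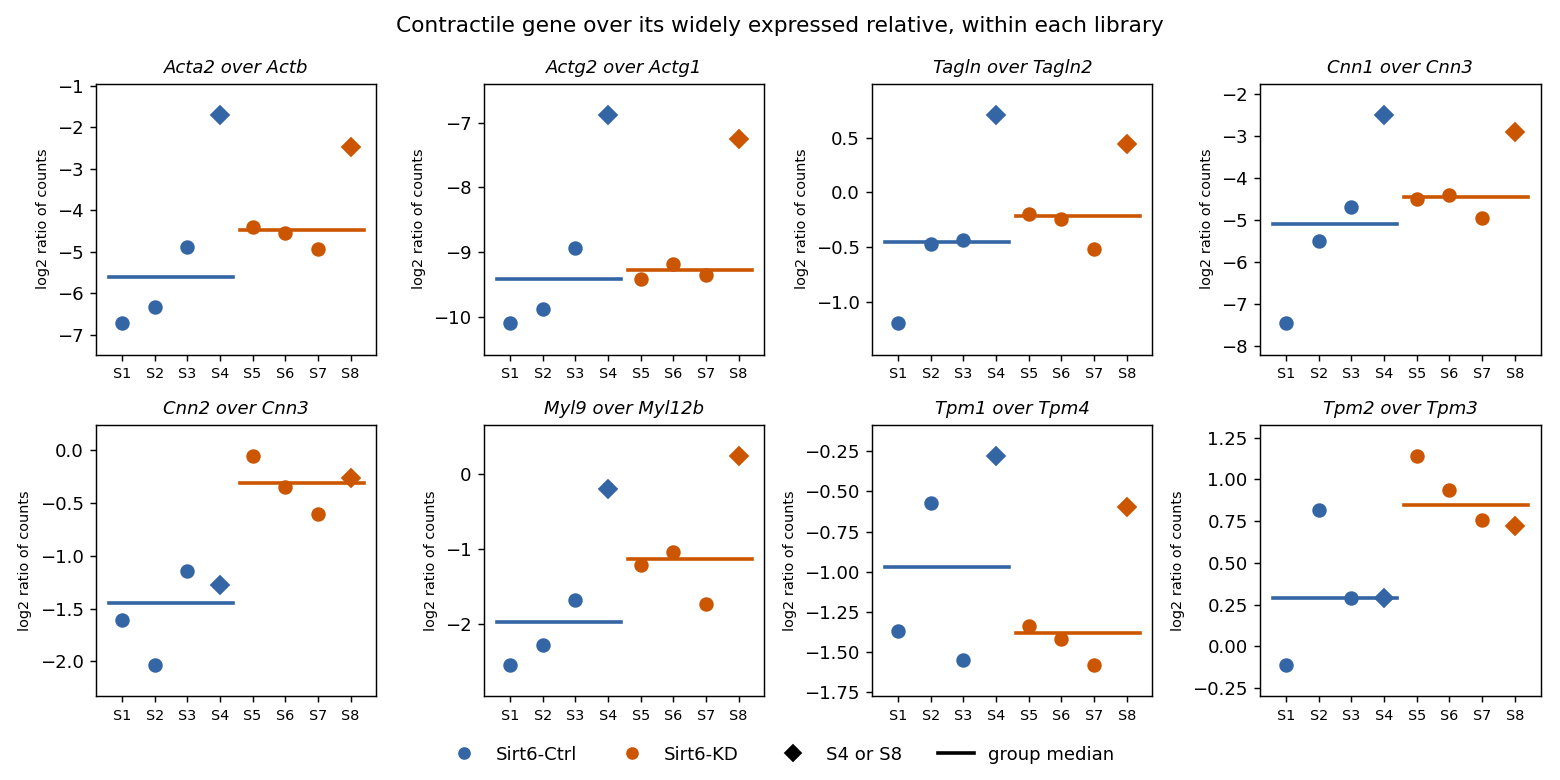
Log2 ratio of the counts of each contractile gene to those of a broadly expressed relative in the same library, in 8 panels with their own vertical ranges, for Sirt6-Ctrl (blue, S1 to S4) and Sirt6-KD (orange, S5 to S8), with lines at group medians and diamonds for S4 and S8. Cnn2 over Cnn3 separates the groups, while S4 and S8 lead in the panels for Acta2, Actg2, Tagln, Cnn1, Myl9 and Tpm1.

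As a description, with no test, the levels of the members were also set against all other genes tested, by the root mean square difference of log2 CPM over the 8 libraries after each gene was centred on its own mean. Acta2 was nearest to Lmod1, a smooth muscle actin nucleator, at 0.48 (median over all genes 1.86), and its nearest member was Cnn1 at 0.65. Tagln and Tpm1 were each other's nearest member at 0.26, and Cnn2 and Srf each other's at 0.35. Tpm2 and Cald1 likewise paired at 0.33. The medians over all genes were 1.05 for Tagln, 0.87 for Tpm1, 0.82 for Cnn2, 0.63 for Srf, 0.58 for Tpm2 and 0.62 for Cald1. Each of these paired members lay nearer still to some gene outside the members. Outside the members, Tpm1 was nearest to Fhl1 (0.20), Myl9 to the matrix gene Tnc (0.26), Tagln to Scara5 (0.24), Actg2 to Galnt18 (0.28) and Cnn1 to Chsy3 (0.47). Tpm2 was nearest to Hrasls (0.12), Cnn2 to Bcl9l (0.08) and Srf to Ugcg (0.06).

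The rest of the pathway was read from lists of 75 genes with a row, of which 74 were tested. In Sirt6-KD 13 of the 74 were called higher and 3 lower, with a median log2 fold change of 0.12, beside 8.02 and 10.7% of all genes. The count of 13 became 7 without S1, 21 without S4, 7 without S5 and 6 without S6, and the count of 3 became 10 without S3. Calls over all genes moved too, from 1063 higher to 552 without S1, 1096 without S4, 491 without S5 and 445 without S6, and from 1416 lower to 1913 without S3. S4 and S8 were both the highest of their groups in 29 of the 74, beside 10.6% of all genes tested.

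Among partners and regulators of Srf, 2 of 11 were called higher in edgeR's test, beside 8.02% of all genes tested. Fhl2, a cofactor that binds Srf, was at 52.9 ± 11.1 CPM in Sirt6-Ctrl and 94.2 ± 11.5 in Sirt6-KD (log2 fold change 0.83, adjusted p = 0.00977 by edgeR). Klf5, a transcription factor of dedifferentiated smooth muscle, was at 29.3 ± 18.8 and 94.9 ± 13.8 CPM (1.69, adjusted p = 0.0105). The groups were apart for both genes. Mkl1, which encodes the actin-sensing coactivator MRTF-A, was at 37.9 to 71.2 CPM in Sirt6-Ctrl and 73.4 to 93.5 CPM in Sirt6-KD and missed the threshold (0.59, adjusted p = 0.0527), passing it without S3 (0.0374) or S4 (0.0249). Myocd, the smooth muscle coactivator myocardin, was at 0.891, 0.186, 2.62 and 15.9 CPM in S1 to S4 and at 1.04, 1.28, 1.72 and 13.4 CPM in S5 to S8, high in S4 and S8 alone. Its log2 fold change of -0.16 (adjusted p = 0.939) turned to 1.82 without S4 and to between 0.10 and 0.16 without S5, S6 or S7.

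Of 19 other smooth muscle genes tested, 6 were called higher, beside 8.02% of all genes tested, with a median of 0.50. Synpo2, an actin-bundling protein of muscle Z-discs, rose from 10.2 ± 7.49 to 52.4 ± 7.53 CPM (log2 fold change 2.36, adjusted p = 0.00626 by edgeR). The actin crosslinker Flna (0.98, adjusted p = 0.0178), Actn1, which encodes alpha-actinin (0.86, adjusted p = 0.0218), and the focal adhesion gene Zyx (0.67, adjusted p = 0.0150) also rose. The call of Zyx was lost without S5, that of Flna without S1 or S6, and that of Actn1 without S1, S5, S6 or S8. S4 and S8 were both the highest of their groups for 8 of the 19, beside 10.6% of all genes tested. Both were over 2-fold above the next library for 3 of them, Myh11, Lmod1 and Mylk, beside 0.475% of all genes, and none of the 3 passed. Myh11, smooth muscle myosin heavy chain, was at 8.25, 9.96, 5.86 and 43.5 CPM in S1 to S4 and at 14.4, 15.8, 13.7 and 40.2 CPM in S5 to S8 (0.31, adjusted p = 0.753). Lmod1 was at 0.833, 1.21, 3.47 and 39.5 CPM in S1 to S4 and at 9.43, 10.8, 5.53 and 43.8 CPM in S5 to S8 (0.62, adjusted p = 0.723). Mylk, the kinase of the myosin light chain, was at 0.833, 0.278, 8.45 and 40.6 CPM in S1 to S4 and at 6.19, 2.87, 5.76 and 25.7 CPM in S5 to S8 (-0.31, adjusted p = 0.879). Without S4, Myh11 (1.39, adjusted p = 0.0451) and Lmod1 (3.24, adjusted p = 0.0247) were called higher and Mylk turned to 1.67 (adjusted p = 0.300). Without S8, Myh11 turned to -0.18 and Lmod1 to -0.37. The actin-binding gene Smtn was at 76.6 ± 33.9 and 136 ± 8.71 CPM (0.83, adjusted p = 0.0537), passing without S3 (0.0245) or S4 (0.0268). Des, the intermediate filament of muscle, was at 150 ± 44.9 and 142 ± 20.2 CPM (-0.078, adjusted p = 0.826), was lowest in S4 and S8 within their groups, and its sign turned without S2 or S8.

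**Figure D4:**
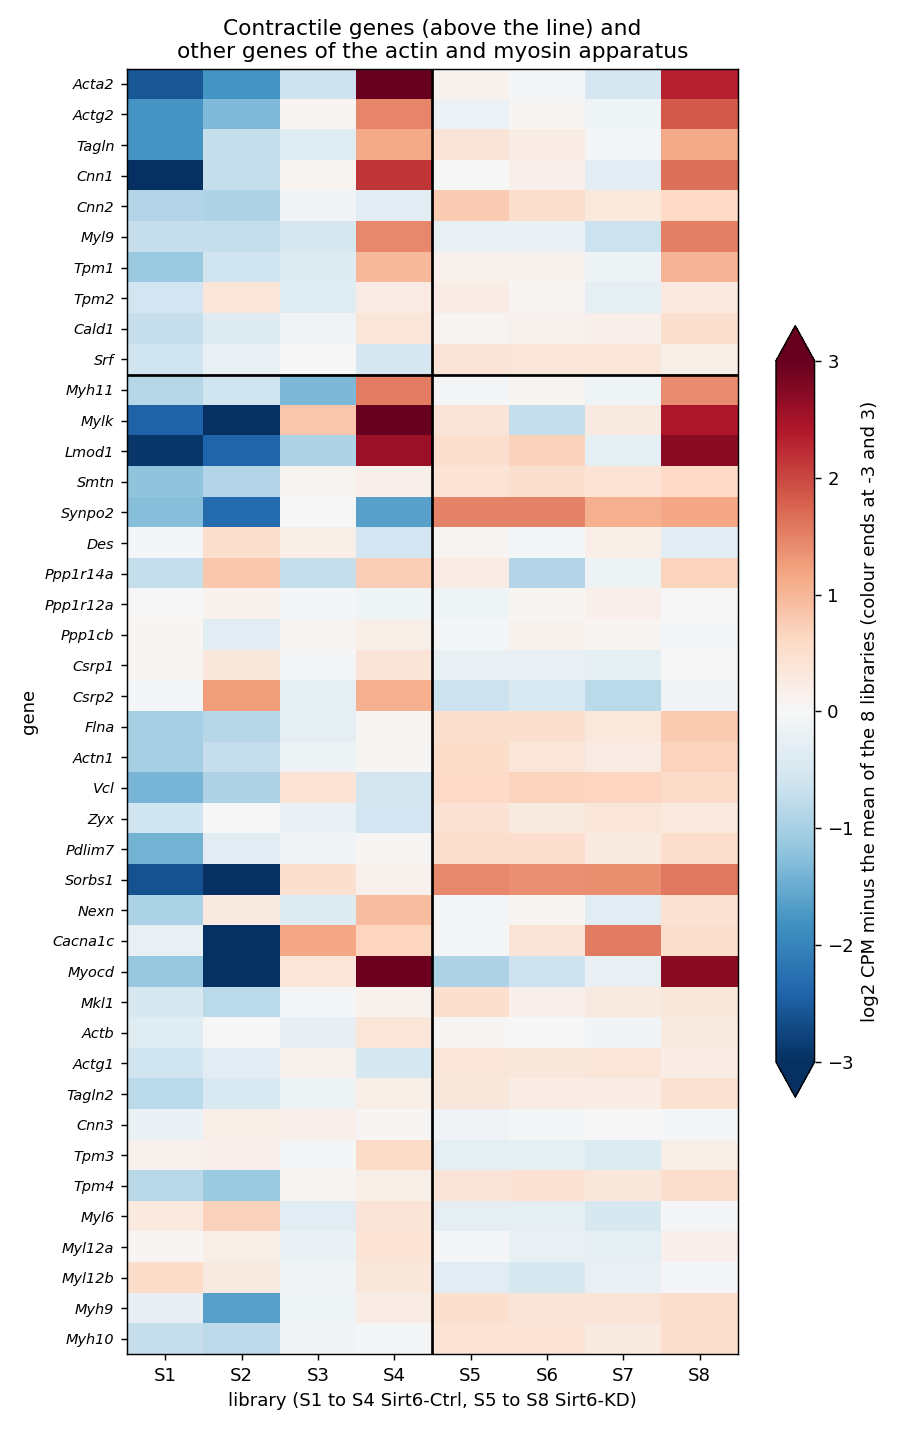
Log2 CPM of the 10 members and of other smooth muscle genes, Srf coactivators and broadly expressed relatives (rows) in the 8 libraries (columns), each row centred on its mean over the libraries. Acta2, Cnn1, Lmod1, Mylk and Myocd are highest in S4 and S8, and Cnn2 and Srf are higher in S5 to S8 than in S1 to S4.

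Among 11 broadly expressed relatives of these genes, 2 were called higher, beside 8.02% of all genes tested. For 7 of the 11, S4 and S8 were both the highest of their groups, beside 10.6% of all genes tested. Both were over 2-fold above the next library for 0 of the 11. Actg1, cytoplasmic gamma actin, was at 1966 ± 476 CPM in Sirt6-Ctrl and 3018 ± 122 in Sirt6-KD (log2 fold change 0.62, adjusted p = 0.0318 by edgeR), but the call was lost when any of S1, S4, S5, S6, S7 or S8 was left out. Actb, cytoplasmic beta actin, was at 2612 ± 591 and 2783 ± 306 CPM (0.092, adjusted p = 0.753). The nonmuscle myosin gene Myh10 was called (0.78, adjusted p = 0.0163), though not without S1 or S6, and Myh9 was not (0.74, adjusted p = 0.116). The nearest relatives of members gave 0.57 for Tagln2 (adjusted p = 0.0628), 0.75 for Tpm4 (0.0677), -0.41 for Tpm3 (0.124) and -0.10 for Cnn3 (0.612). Tagln2 passed without S4, and Tpm4 passed without S3 or S4. The light chain genes gave -0.57 for Myl6 (0.0655), -0.20 for Myl12a (0.400) and -0.53 for Myl12b (0.0382, under the fold threshold), and Myl6 and Myl12b passed as lower without S3.

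Of 19 inducers and matrix genes of myofibroblasts, 1 was called higher and 2 lower, beside 8.02% and 10.7% of all genes tested. For 8 of the 19, S4 and S8 were both the highest of their groups, beside 10.6% of all genes tested. Both were over 2-fold above the next library for 1, Tnc. Tgfbr2, a TGF-beta receptor, was at 79.6 ± 37.1 and 177 ± 11.8 CPM (log2 fold change 1.15, adjusted p = 0.0182 by edgeR), with the call lost without S1, S5, S6 or S7. The matrix genes Postn (-1.23, adjusted p = 0.00129) and Col3a1 (-1.38, adjusted p = 0.00812) fell, from 239 ± 24.6 to 102 ± 12.8 and from 1069 ± 308 to 412 ± 153 CPM. Cnn2 and Srf were called higher and Postn and Col3a1 lower in the same comparison, and a link between them was not tested.

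Other cell types were checked beside these results. The summed level of the 7 markers of vascular smooth muscle and pericytes with a row, 6 of them above 1 CPM in both groups, was 261 to 401 CPM in Sirt6-Ctrl and 305 to 383 CPM in Sirt6-KD, with the maximum of each group in S4 and in S8. S4 and S8 were both the highest of their groups for 4 of the 7 (Myh11, Cspg4, Mcam and Kcnj8), beside 10.6% of all genes tested. Mcam was at 33.4 CPM in S4 and 30.7 CPM in S8 and at most 14.5 CPM elsewhere, and Kcnj8 at 15.2 and 8.97 CPM and lower in every other library. Des went the other way and was lowest in S4 and S8 (96.6 and 116 CPM), and Notch3 and Abcc9 were not highest in S8. The 3 annulus or tendon markers with a row, led by Col1a1, summed to 13329 to 25340 CPM in Sirt6-Ctrl and 7986 to 17515 CPM in Sirt6-KD, again with S4 and S8 the highest of their groups. All 3 had a negative log2 fold change (median -0.63), and Scx was called lower (-1.20, adjusted p = 0.0490 by edgeR), beside 10.7% of all genes tested. The 8 NP markers summed to 197 to 332 CPM in Sirt6-Ctrl and 366 to 525 CPM in Sirt6-KD, with neither S4 nor S8 the highest. However, Vcan made up most of each knockdown sum, at 204 to 334 CPM, and a smaller part of each control sum, at 26.3 to 132 CPM. The log2 fold change of Vcan was 1.63 (adjusted p = 0.0169 by edgeR). For 1 of the 8, Acan, S4 and S8 were both the highest of their groups. Acan was at 55.7 CPM in S4 beside at most 15.5 CPM in S1 to S3. In S8 it was at 18.7 CPM, beside at most 15.5 CPM in S5 to S7. Of the 8, 5 had a negative log2 fold change, with a median of -0.45. By edgeR, Krt8 (-1.32, adjusted p = 0.0441) and Car3 (-2.70, adjusted p = 0.0127) were called lower and Vcan higher. These calls stood beside 10.7% lower and 8.02% higher of all genes tested. Macrophage markers, 2 of 4 with a row, summed to 1.48 to 3.28 CPM and 2.76 to 5.17 CPM. Of 21 striated muscle genes, 3 had a row, and those without a row may have been low or unnamed. All 3 were tested and none was called by edgeR. For 1 of the 3, the striated muscle actin gene Acta1, S4 and S8 were both over 2-fold above the next library of their groups. That pattern was held by 0.475% of all genes. In Acta1, S4 and S8 were 5.39 and 6.41 times the mean of the other libraries of their groups. The part of any other cell type in the levels of S4 and S8 was not tested.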

How the data were processed

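RNA-seq was analysed in 8 libraries of primary rat NP cells, 4 Sirt6-Ctrl and 4 Sirt6-KD, grouped by the genotype given in the labels. The authors deposited unnormalized counts for 32975 rows, Ensembl genes and 92 spike-ins. The submitters' processing notes name Trimmomatic 0.36, STAR 2.5.2b, featureCounts of Subread 1.5.2, DESeq2 and the build Rnor_6.0, without roles; strandedness and the treatment of multi-mapped reads are not given in the sources used here. A second table that the authors deposited holds a normalized signal per library, log2 fold changes and p-values of their own comparison. It lists the 13612 rows whose counts summed to more than 80 and was used only for gene names; 72 rows tested had no name.

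Rows were filtered with filterByExpr, normalized by TMM and tested with edgeR 4.0.16 in R 4.3.3 (quasi-likelihood test, two-sided, unpaired, Benjamini-Hochberg over all 13313 rows tested, spike-ins included). Levels are TMM-normalized CPM. The script was tested on simulated data. The members and gene lists were chosen with earlier results of these data known. All members and Sirt6 were named, together with fixed genes of each list and, per list, up to 4 called genes in either direction, by lowest p. The results of 1 list are not reported here, though its genes remain in the pathway totals. Alternatives were other scalings (spike-ins among them) and filters, DESeq2 1.42.0, limma 3.58.1 (voom), glmTreat and libraries left out. Promoters came from RefSeq (GRCr8). Levels were not compared between genes, since no gene lengths were used.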

Additional observations from a re-analysis of the deposited data

Results flagged for a closer look

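Within each group of 4 libraries, the gap between an extreme library and its nearest neighbour was divided by the range of the group. Of 100 groups examined (the named genes, the ratios and the summed share in 2 groups each), 18 exceeded Dixon's 95% limit. For normally distributed values, chance would flag about 1 in 20 groups, or 5.00 here. Gene levels were taken in CPM and not as logs, and some were strongly skewed, as Acta2 at 19.8 to 1048 CPM in Sirt6-Ctrl. The 18 beside 5.00 therefore does not measure a departure from chance, and flags on a log scale were not examined. All 18 were S4 or S8, 5 and 13 of them. In Sirt6-Ctrl, S4 stood high for Acta2 (0.945), Myl9 (0.953), Myh11 (0.891), Myocd (0.845) and Lmod1 (0.932). In Sirt6-KD, S8 stood high for Acta2 (0.912), Actg2 (0.949), Cnn1 (0.860), Myl9 (0.896), Tpm1 (0.831), Myh11 (0.919), Myocd (0.945), Mylk (0.854), Lmod1 (0.862), Rhob (0.842), Col3a1 (0.961) and the log2 ratio of Actg2 to Actg1 (0.897). S8 stood low for Actg1 (0.899). These genes share the 2 libraries and are not independent.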

How the results depend on the processing

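Of 949 values under alternatives, 793 kept their direction and their side of the threshold (for counts, stayed within 1.5 times, and for values with no test, within 1 SD). The count of members called higher, 2, became 0 with spike-in scaling, 0 with glmTreat, 1 without S1 and S2 and 1 without S4 and S8 (the latter chosen after seeing the data), and ran from 1 to 5 over libraries left out singly. The 0 members lower held throughout. For the other pathway genes, the 13 higher became 0 with spike-ins, 21 with limma-voom, 1 with glmTreat and 8 without S1 and S2, with 6 to 21 over single libraries. The 3 lower became 0 with spike-ins, 5 with DESeq2, 6 with no fold threshold and 6 without S4 and S8, with 3 to 10 over single libraries. With spike-ins 20 genes were called higher and 4 lower of all tested, and Sirt6 stood at -0.36 (adjusted p = 0.567, edgeR) against -1.35. Estimates that turned sign with spike-ins were Acta2 0.086, Cnn1 0.49, Myocd 0.32, Mylk 0.14, Des 1.0, Cnn3 0.85, Tpm3 0.52, Myl6 0.51, Myl12a 0.75 and Myl12b 0.49. With limma-voom they were Acta2 0.89, Cnn1 0.63, Myocd 0.33 and Mylk 1.01. Without S1 and S2 they were Actg2 -0.24, Tagln -0.068, Myl9 -0.38, Tpm1 -0.083, Myh11 -0.22, Des 0.13, Lmod1 -0.29 and Actb -0.016, and among mean log2 ratios Acta2 to Actb -0.79, Actg2 to Actg1 -0.89, Tagln to Tagln2 -0.26 and Cnn1 to Cnn3 -0.60, with the difference in summed share at -0.03 percentage points. Without S4 and S8 they were Acta2 1.33, Cnn1 0.72, Myocd 0.14 and Mylk 0.64. Over single libraries left out, the ranges of those that turned were -1.43 to 2.39 for Acta2, -0.24 to 1.48 for Actg2, -0.66 to 1.34 for Cnn1, -0.54 to 1.01 for Myl9, -0.18 to 1.39 for Myh11, -1.84 to 1.82 for Myocd, -1.33 to 1.67 for Mylk, -0.24 to 0.11 for Des and -0.37 to 3.24 for Lmod1. The mean log2 ratio of Actg2 to Actg1 turned without S1 (-0.23), S2 (-0.16) or S8 (-0.37), and that of Tagln to Tagln2 without S1 (-0.062). The call of Cnn2 was lost only with spike-ins (1.86) and glmTreat, and that of Srf in 9 of 19 alternatives. DESeq2 gave no adjusted p for Acta2, Myh11 and Lmod1. The cause of these shifts was not tested. No paired analysis was possible because the labels and columns carry no replicate number shared between the groups.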
